A study of Mus musculus with 2 samples.

Results

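The 8 genes described here are 7 small heat shock protein genes (Cryab, Hspb1, Hspb2, Hspb3, Hspb6, Hspb7 and Hspb8) and the gene of their co-chaperone, Bag3. They were chosen by gene symbol, and all 8 symbols were found among the 55536 annotated genes. RNA was measured in hearts of 2 female B6CASTF1/J mice, a first-generation cross of C57BL/6 with CAST, aged 2 months, called animal 2 and animal 1 here. Each animal gave 1 library from 300 ng of total RNA, depleted of ribosomal RNA and spiked with ERCC control transcripts. The animals are replicates of 1 group (n = 2), so the data give levels in heart and the difference between these 2 animals, with no comparison of conditions. A whole heart holds myocytes together with vessels, connective tissue and blood.

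Small heat shock proteins are chaperones that work without ATP: they bind partly unfolded proteins and hold them in a form that other chaperones can refold or pass on for breakdown. Heart and skeletal muscle carry many members of the family, where they sit on desmin, titin, actin and filamin at the Z-disc. Bag3 joins small heat shock proteins to Hsp70 through separate binding sites and directs damaged filamin and other stretched proteins into chaperone-assisted selective autophagy. Inherited changes in human BAG3 and CRYAB are known causes of muscle and heart disease. Part of the family, Hspb1, Cryab and Bag3 among them, is under control of the heat shock factor HSF1, which binds inverted repeats of a short GAA unit.

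Promoter windows of RefSeq on GRCm38.p6, from 250 bases before to 50 bases after a start site, were at hand for 6 of the 8 genes, in 7 windows, since Hspb6 has 2. Cryab and Hspb2 are named only. Of these windows 4 are printed up to the start because they hold the letters that HSF1, MEF2 and Sp1 factors are known to bind. In Hspb6 the printed stretch ends at position -34, the last base before the annotated Hspb6-201. In Hspb1 (chr5:135887669-135887918, plus strand) and Hspb6 (chr7:30553051-30553267, plus strand) the capitals mark a heat shock element pair, a GAA unit facing its inverted copy. In Hspb3 (chr13:113663677-113663926, minus strand) they mark a match to the MEF2 consensus of muscle genes, and in Bag3 (chr7:128523333-128523582, plus strand) the GC box.
Hspb1: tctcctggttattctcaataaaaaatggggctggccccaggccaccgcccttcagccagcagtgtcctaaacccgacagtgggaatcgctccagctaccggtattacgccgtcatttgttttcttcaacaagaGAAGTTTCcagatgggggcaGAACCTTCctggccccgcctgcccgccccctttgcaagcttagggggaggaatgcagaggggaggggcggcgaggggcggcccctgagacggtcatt
Hspb6: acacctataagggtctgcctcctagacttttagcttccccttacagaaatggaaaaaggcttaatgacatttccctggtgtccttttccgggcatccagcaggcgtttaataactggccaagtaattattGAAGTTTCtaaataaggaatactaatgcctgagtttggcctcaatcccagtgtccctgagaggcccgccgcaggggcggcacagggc
Hspb3: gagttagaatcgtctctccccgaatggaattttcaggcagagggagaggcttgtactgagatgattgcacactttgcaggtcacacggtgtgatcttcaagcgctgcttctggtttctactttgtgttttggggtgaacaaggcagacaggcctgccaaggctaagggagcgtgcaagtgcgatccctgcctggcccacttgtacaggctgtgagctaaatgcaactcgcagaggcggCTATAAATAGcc
Bag3: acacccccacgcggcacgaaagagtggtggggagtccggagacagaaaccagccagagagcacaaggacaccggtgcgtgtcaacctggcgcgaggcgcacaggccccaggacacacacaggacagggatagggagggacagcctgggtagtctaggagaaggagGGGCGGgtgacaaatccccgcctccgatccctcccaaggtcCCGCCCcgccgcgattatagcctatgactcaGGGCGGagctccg

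The heat shock element pair was searched as GAANNTTC or TTCNNGAA, each of which reads the same on both strands. It was found in 5 of the 7 windows, against 15.1% of all 32851 RefSeq windows of the same length. Hspb1 held 2 pairs, at positions -117 to -110 and -97 to -90 from the start. Hspb6 held 1 at -120 to -113 of its second start, Hspb3 1 at -224 to -217, and Hspb8 and Bag3 1 each just past the start, at 3 to 10 and 43 to 50. The same letters, GAAGTTTC, made up the pair in Hspb6, Hspb8 and Bag3 and the first of the 2 in Hspb1. No window of the 8 genes held 3 such units in a row, which 0.603% of all windows did. The MEF2 consensus, at -12 to -3 of Hspb3, was in 1 of 7 windows against 0.557% of all, and it overlaps the TATA box (TATAAA, both strands) at -11 to -6. That TATA box and the one at -29 to -24 of the second Hspb6 start were the matches in 2 of 7 windows, against 13.6% of all. The one in Hspb6 is upstream of the RefSeq start but inside the annotated first exon of Hspb6-201. The GC box (GGGCGG or CCGCCC) was in 5 of 7 windows against 35.7%, with 4 copies in Hspb1, 3 each in Bag3 and Hspb8, and 1 in each Hspb6 window. These are matches of letters in the reference build, and no binding was measured. The CAST alleles that these mice carry were not searched.

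The proteins, translated from the annotated coding sequences, differ in length and likeness. Bag3 has 577 residues, Hspb1 209, Hspb8 196, Hspb2 182, Cryab 175, Hspb7 169, Hspb6 162 and Hspb3 154. Among the small heat shock proteins, the closest pair was Hspb6 and Cryab, with 53.7% identity over 136 aligned residues. Hspb1 and Cryab followed at 52.6% over 154 residues and Hspb1 and Hspb8 at 48.4% over 155. The least alike were Hspb3 and Hspb8, at 26.6% over 109. The short motif isoleucine-proline-valine, through which Bag3 is known to bind Hspb8, occurred 2 times in Bag3, and 1 time each in Hspb1 and Hspb6.

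Gene reads numbered 41790009 for animal 2 and 41862417 for animal 1. The labelled tissue carried its markers: the 6 cardiomyocyte genes summed to 29946 TPM in animal 2 and 25830 TPM in animal 1, led by the myosin gene Myh6, while 7 skeletal muscle genes summed to 3.66 and 2.54 TPM, from 76 and 115 reads. All 5 lens markers, the alpha crystallin gene Cryaa among them, were at 0 reads, which allows up to 0.0718 and 0.0717 CPM of gene reads (3 reads). Levels are TPM, the relative abundance of transcripts after correction for length, and are given from a first quantification of alignments and, where stated, from a second quantification of the same reads. TPM is scaled to the same total in each library, but the typical gene had a higher value in animal 2. Across the 16133 genes that had 20 reads or more, the log2 ratio of TPM had a median of 0.22. Nuclear protein-coding genes held 45.1% of TPM in animal 2 and 38.4% in animal 1, so other entries took a larger part in animal 1. The TPM pairs and sums below, and their SD between the animals, hold this shift of scale.

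The 8 genes summed to 2563 TPM in animal 2 and 2114 TPM in animal 1 (2338 ± 318, SD, n = 2), which was 0.568% and 0.551% of the TPM of nuclear protein-coding genes. Cryab alone made up 47.7% and 48.2% of that sum. The second quantification gave 3354 and 3064 TPM. Levels ran in a fixed order, Cryab, Hspb7, Hspb6, then Hspb8 and Hspb1, then Bag3, Hspb2 and Hspb3, in both animals except within the pair Hspb8 and Hspb1. For every other pair of neighbours in that order the lower animal of the upper gene lay above the higher animal of the lower gene.

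**Figure D1:**
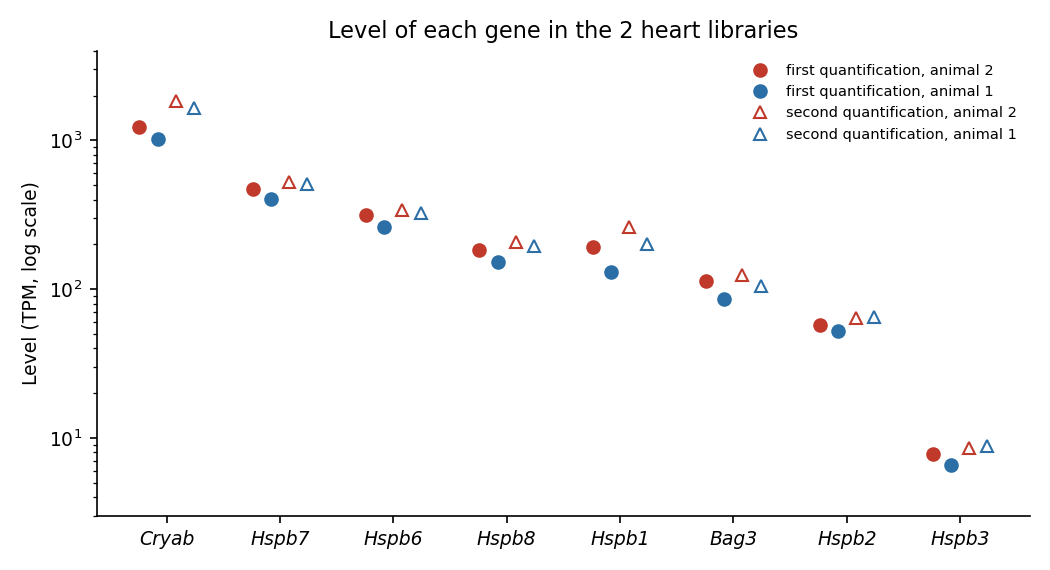
Level of each gene in TPM (log scale) in animal 2 and animal 1, as deposited in the first quantification (filled circles) and the second (open triangles), in order of mean level. Cryab lies highest at 1224 and 1018 TPM and Hspb3 lowest at 7.74 and 6.56 TPM, and the points of Hspb8 and Hspb1 overlap.

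Cryab (ENSMUSG00000032060.10; chr9:50751325-50756636, plus strand, mm10 with GENCODE M21 as for all genes here) encodes alpha-B crystallin, the chaperone of desmin and titin and also a major protein of the lens. It had 1224 TPM in animal 2 and 1018 TPM in animal 1 (1120.9 ± 145, SD, n = 2), from 25205 and 23012 reads. It ranked 32 of 22015 nuclear protein-coding genes. With Cryaa at 0 reads and the other lens markers at 0, alpha-B was the alpha crystallin measured in these hearts. The second quantification put it at 1825 and 1656 TPM.

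Hspb7 (ENSMUSG00000006221.7; chr4:141420779-141425311, plus strand), also called cvHsp, is a heart and muscle member that binds filamin C. It followed with 469 TPM in animal 2 and 405 TPM in animal 1 (437 ± 45.2, SD, n = 2). It had the most reads of the 8 genes, 41769 and 40129, on a transcript of 2769 bases, and ranked 114. Its level per length was well under that of Cryab although its reads were more, since Cryab transcripts run from 585 to 1117 bases.

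Hspb6 (ENSMUSG00000036854.14; chr7:30552178-30555443, plus strand), or Hsp20, is a target of protein kinase A and is known to relax vessels and protect myocytes. It had 316 TPM in animal 2 and 263 TPM in animal 1 (289 ± 37.1, SD, n = 2) and ranked 188. Hspb8 (ENSMUSG00000041548.4; chr5:116408491-116422864, minus strand), the standing partner of Bag3, had 184 TPM in animal 2 and 152 TPM in animal 1 (168 ± 22.6, SD, n = 2). Hspb1 (ENSMUSG00000004951.10; chr5:135887919-135889563, plus strand), or Hsp25, binds actin and is phosphorylated by the kinase Mapkapk2. It had 191 TPM in animal 2 and 130 TPM in animal 1 (160 ± 42.8, SD, n = 2), so it lay above Hspb8 in animal 2 and below it in animal 1. In the second quantification Hspb1 was the higher of the pair in both animals, at 262 and 201 TPM against 207 and 195 TPM for Hspb8.

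Bag3 (ENSMUSG00000030847.8; chr7:128523616-128546981, plus strand; 4 exons) had 114 TPM in animal 2 and 85.9 TPM in animal 1 (100.02 ± 19.9, SD, n = 2). Its partner Hspb8 was thus 1.62 and 1.77 times as high per length. In the second quantification that ratio of levels was 1.68 in animal 2 and 1.86 in animal 1.

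Hspb2 and Hspb3, which form a complex with each other in muscle, were the lowest. Hspb2 (ENSMUSG00000038086.4; chr9:50751078-50752354, minus strand) also binds the kinase DMPK. It had 57.6 TPM in animal 2 and 52.3 TPM in animal 1 (55.0 ± 3.72, SD, n = 2), from 1231 and 1243 reads. Hspb3 (ENSMUSG00000051456.4; chr13:113662896-113663676, minus strand), a gene of 1 exon, had 7.74 TPM in animal 2 and 6.56 TPM in animal 1 (7.15 ± 0.834, SD, n = 2), from 176 and 166 reads. It ranked 6309, while the median over the 11238 nuclear protein-coding genes at 1 TPM or more was 8.61 TPM. Cryab stood 158 and 155 times above it.

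The other genes named as small heat shock proteins were near the detection limit or low. Hspb9 and Odf1, both known from testis, had at most 1 read in either animal. Hspb11, a part of the ciliary transport complex with weak likeness to the family, had 80 reads in animal 2 and 65 in animal 1, or 4.98 and 3.38 TPM.

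The second quantification raised the TPM of the 8 genes unequally. Its mean was 1.55 times the first for Cryab and 1.44 times for Hspb1, and 1.14 to 1.22 times for the other 6 genes. Over 11219 protein-coding genes the median of this log2 ratio was 0.26, and 10.9% of them lay above Cryab and 16.9% above Hspb1. The reads assigned to Hspb1 differed little, with the second quantification at 1.05 times the first in both animals. The effective length of its main transcript, by which TPM divides reads, was 804 bases in the first quantification and 576 (animal 2) and 577 (animal 1) in the second. For Hspb2, Hspb3 and Hspb6 the second quantification held fewer reads than the first, 0.778 and 0.792 times for Hspb2, 0.790 and 0.849 times for Hspb3 and 0.928 and 0.936 times for Hspb6 (animal 2 and animal 1).

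Cryab and Hspb2 lie head to head on chromosome 9, and their annotated gene bodies overlap by 1030 bases. The main Hspb2 transcript, Hspb2-201, starts 614 bases from the start of Cryab-201, 700 from that of Cryab-203 and 727 from that of Cryab-205, with both genes leading away from the gap. Cryab-202 and Cryab-206 start on the far side of it, at -416 and -968 bases, inside the Hspb2 gene body. Only Cryab-206 shares exon bases with Hspb2, 252 with Hspb2-201 and 127 with Hspb2-202, on the opposite strand. The sources used here do not say whether reads were counted by strand. Cryab-206 took 0.02% and 0.10% of Cryab TPM in animal 2 and animal 1, and 0.51% and 0.86% in the second quantification. Over their whole genes, the TPM of Cryab was 21.2 times that of Hspb2 in animal 2 and 19.5 times in animal 1. Of the Cryab transcripts, Cryab-202 and Cryab-206 alone reach the Hspb2 gene body. In the first quantification they had 2.05 and 0.23 TPM in animal 2 and 1.67 and 1.01 TPM in animal 1. The second quantification put Cryab-202 far higher, at 317 TPM in animal 2 and 234 TPM in animal 1, with Cryab-206 at 9.36 and 14.3 TPM. The level of Cryab transcripts that reach into Hspb2 thus depended on the quantification.

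**Figure D2:**
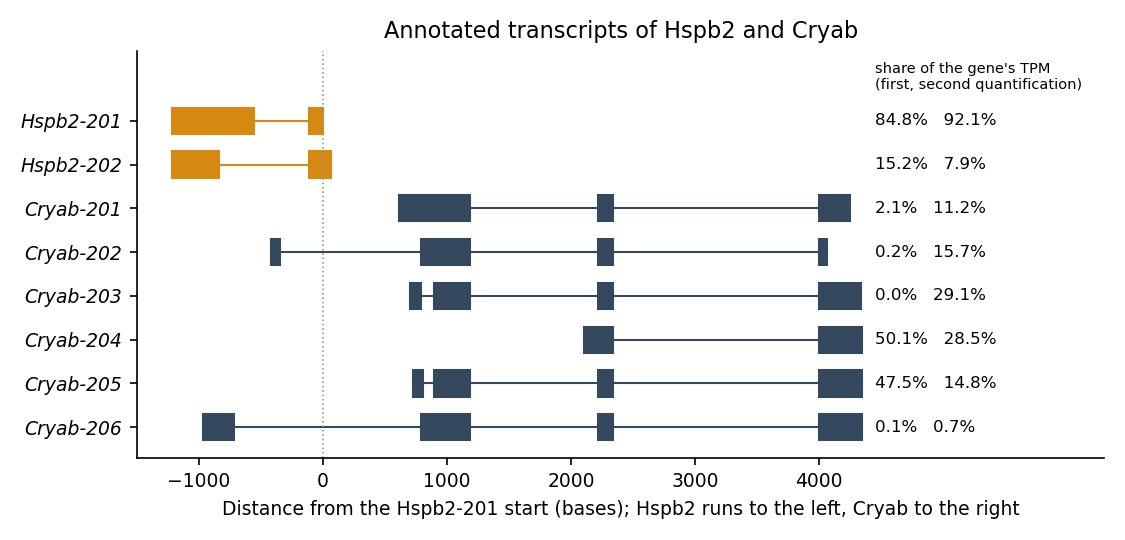
Exons (boxes) of the annotated transcripts of Hspb2 (orange) and Cryab (dark) by distance in bases from the Hspb2-201 start, with each transcript's mean share of its gene's TPM over both animals in the first and the second quantification. Hspb2-201 and the Cryab starts at 614, 700 and 727 bases face away from each other, and only Cryab-206 reaches over Hspb2 exons.

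Transcript shares of Cryab depended on the quantification. In the first, the retained-intron transcript Cryab-204, which lacks the annotated first exon, took 48.5% of TPM in animal 2 and 51.8% in animal 1, and the coding Cryab-205 took 49.0% and 46.0%. Cryab-204 is short, and its share of the gene's reads was smaller, 38.2% and 41.3%. The second quantification gave Cryab-204 28.2% and 28.9%, Cryab-205 15.6% and 13.9%, Cryab-202 17.3% and 14.2%, and Cryab-201 11.1% and 11.2%. It gave Cryab-203 27.2% in animal 2 and 31.0% in animal 1, where the first quantification lists 0 reads.

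Cryab-203 and Cryab-205 hold no base that is in no other transcript of the gene, so only junctions and coverage separate them. Cryab-204 has 117 such bases, at its 5' end inside an intron of the other forms. The 2 quantifications differed far more than the animals did in each of these 5 shares. Cryab-201, Cryab-203, Cryab-205 and Cryab-206 encode the same protein of 175 residues, and Cryab-202 a shorter one of 130.

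Hspb6 showed a similar split. Hspb6-201, the coding transcript, took 99.0% of TPM in animal 2 and 99.6% in animal 1 in the first quantification, and 57.8% and 54.3% in the second. There the non-coding Hspb6-202, which starts at an upstream first exon and has no base of its own, took 42.1% and 45.6%, against 0.21% and 0.31% in the first. For Hspb2, Hspb2-201 led in both, with 84.9% and 84.7% in the first quantification and 89.8% and 94.4% in the second. Hspb1-201 and Hspb8-201 held 99.57% or more in each library and quantification, and Hspb7, Hspb3 and Bag3 have 1 annotated transcript each.

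**Figure D3:**
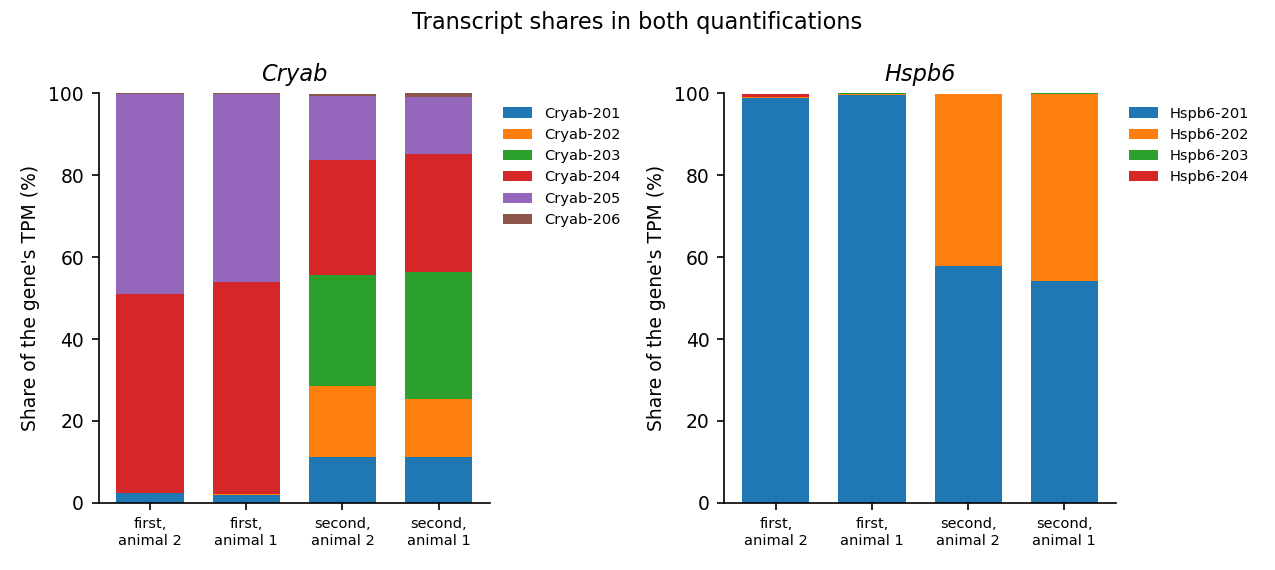
Share of the gene's TPM by annotated transcript (stacked, in percent) for Cryab and Hspb6, in animal 2 and animal 1 of the first and then of the second quantification. In Cryab-203 and Hspb6-202 the second quantification places 27.2% and 42.1% of animal 2's TPM where the first has 0 and 0.21%.

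To set the animals side by side, reads were scaled by TMM and each gene was tested with a two-sided exact binomial test and Benjamini-Hochberg adjustment over all 16133 genes. This test compares 2 libraries, sees counting error only and has no replicate check. None of the 8 genes passed at 2-fold, against 0.483% of all genes tested that were higher in animal 2 and 0.893% that were higher in animal 1. With no fold minimum 3 of 8 were higher in animal 2 and 0 lower, against 6.6% and 4.75% of all genes. Passing with no fold minimum depends on depth, and 7 of the 8 are among the 4456 protein-coding genes with at least 2000 reads. The shares cover all genes with at least 20 reads and are not matched for depth, here or for the lists below. The median log2 ratio of the 8 genes was 0.033, beside -0.0024 over all genes tested. With total gene reads as the scale, 47.5% of 240 genes passing at 2-fold were higher in animal 2, against 35.1% of 222 with TMM.

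Hspb1 differed most: animal 2 had 5116 reads and animal 1 had 3884. Its ratio of scaled reads was 1.249 (exact 95% interval 1.20 to 1.30) with an adjusted p of 1.16e-23 by the exact test. Of the 4456 protein-coding genes with at least 2000 reads, 1.84% had a higher ratio. In bulk tissue, more cells of a type and more RNA per cell cannot be told apart.

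Bag3, with 9374 and 7852 reads in animal 2 and animal 1, had a ratio of 1.13 (1.10 to 1.17; adjusted exact p = 3.75e-14), and 7.32% of the well covered genes lay above it. Cryab had a ratio of 1.04 (1.02 to 1.06; adjusted exact p = 6.66e-04), smaller than that of 28.2% of well covered genes. With edgeR's exact test, whose pooled dispersion allows a coefficient of variation of 0.0829 between animals, the adjusted p was 1 for each of the 8 genes, Hspb1 included. That dispersion was estimated from the same 2 libraries as 1 group. The differences under test were thus part of the spread, and small ratios could hardly pass.

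The other 5 did not pass. Hspb8 had a ratio of 1.03 (1.002 to 1.06; adjusted exact p = 0.178) and Hspb6 of 1.02 (0.992 to 1.04; adjusted exact p = 0.503). Hspb2 had 0.939 (0.867 to 1.02; adjusted exact p = 0.387). Hspb3, with few reads, had 1.01 (0.808 to 1.2503; adjusted exact p = 1), so a difference within that interval was not detectable at this depth. Hspb7 had 0.987 (0.973 to 1.0005; adjusted exact p = 0.252), and with total gene reads as the scale its log2 ratio turned to 0.060 with an adjusted exact p of 5.29e-08, where the median of all genes moved to 0.077. Relative to that median it was -0.017 on both scales. On that scale Hspb6 and Hspb8 passed too, both higher in animal 2 (adjusted exact p = 2.81e-07 and 3.71e-08), and with ERCC spike-ins as the scale Hspb8 did (8.35e-03).

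**Figure D4:**
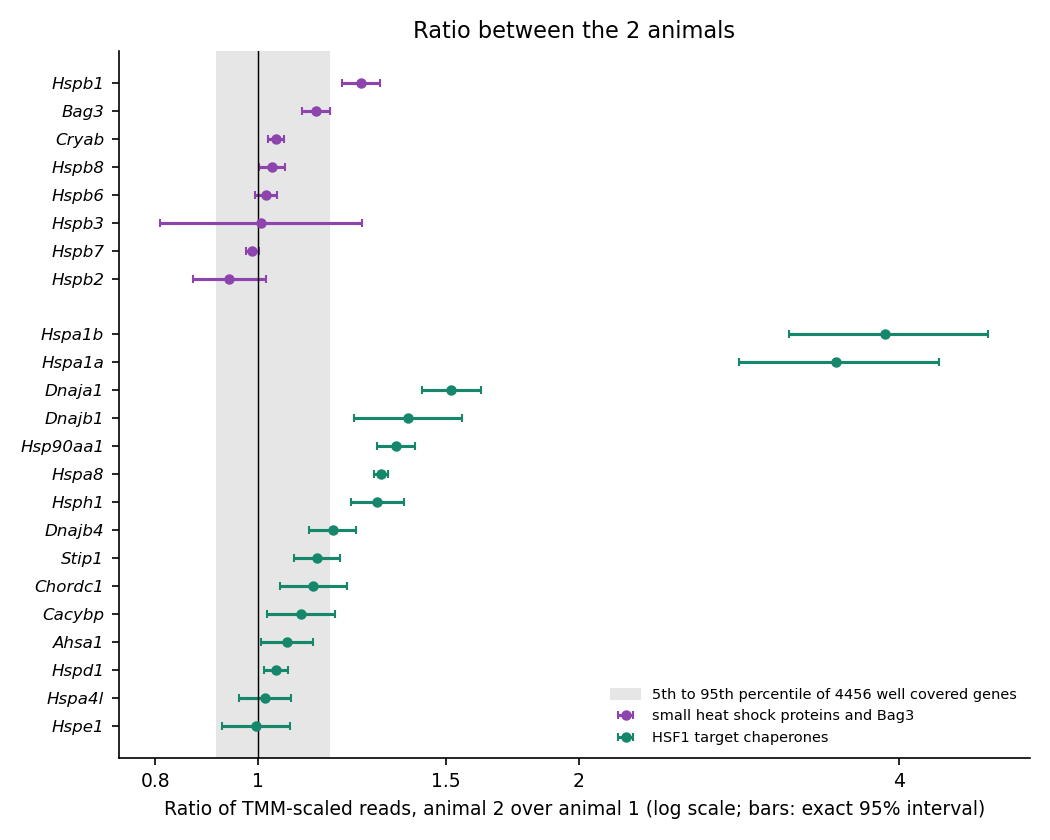
Ratio of TMM-scaled reads of animal 2 over animal 1 (log scale) with exact 95% intervals, for the 8 genes (purple, upper group) and the 15 HSF1 target chaperones (green, lower group). The grey band spans the middle 90% of 4456 well covered genes, from -0.13 to 0.22 on the log2 scale, and among the 8 genes Hspb1 alone has its whole interval above it.

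The chaperones listed as targets of HSF1 were mostly higher in animal 2. Of these 15 genes, 11 passed with no fold minimum, all higher in animal 2, against 6.6% of all genes tested that were higher and 4.75% that were lower. A ratio above 1 was found in 14 (all 15 with total gene reads or spike-ins as the scale), and in 53.7% of the well covered genes. Their median log2 ratio was 0.23, beside 0.033 for the 8 genes and -0.0024 for all tested. The 2-fold test called 2 of them, the inducible Hsp70 genes. Hspa1b reads numbered 444 in animal 2 and 108 in animal 1, a ratio of 3.88 (3.15 to 4.86), and Hspa1a 410 and 111, a ratio of 3.49 (2.83 to 4.36). These are near-identical copies, so the split of reads between them is uncertain.

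Hspa8, the constitutive Hsp70 and the most abundant of this list, stood at 683 TPM in animal 2 and 429 TPM in animal 1, with a ratio of scaled reads of 1.30 (1.28 to 1.32). Hsp90aa1, the inducible Hsp90, had 82.0 and 50.4 TPM and a ratio of 1.35. The mitochondrial chaperonin gene Hspd1 had 164 and 134 TPM and a ratio of 1.04. Of the 8 genes, Hspb1 had a ratio of 1.25, Bag3 of 1.13, Cryab of 1.04, Hspb8 of 1.03 and Hspb6 of 1.02. Hspb3 had 1.01, Hspb7 0.987 and Hspb2 0.939. The part of HSF1 in any of these ratios was not tested. None of the 4 genes of heat shock factors and their binding protein passed: Hsf1 had 18.8 TPM in animal 2 and 15.9 TPM in animal 1, Hsf2 5.91 and 5.59 TPM, and Hsbp1, which binds Hsf1, 65.1 and 55.8 TPM.

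Of 12 genes of chaperone-assisted autophagy and other Bag3 partners, 2 passed with no fold minimum and 0 at 2-fold, 1 in each direction, against 6.6% of all genes higher and 4.75% lower in animal 2. Hspa8, counted here too, was higher in animal 2. The autophagy receptor gene Sqstm1 was lower there, at 8358 reads against 8304 in animal 1, a ratio of 0.954 (0.926 to 0.984) that turned to 1.01 with total gene reads as the scale. Ywhag, a 14-3-3 protein gene, did not pass at 121 TPM in animal 2 and 97.9 TPM in animal 1, nor did the deacetylase gene Hdac6 with a ratio of 0.874 (0.764 to 0.999). The list's median log2 ratio was -0.024, and 0.056 with total gene reads as the scale.

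The structural clients, proteins that these chaperones bind, were abundant. The 9 genes summed to 8021 TPM in animal 2 and 6705 TPM in animal 1, of which Actc1, cardiac actin, gave 4952 and 3940 TPM. The ratio of their summed scaled reads was 0.919, with Ttn giving 1213671 of the 1617788 reads in animal 2. The list's median log2 ratio was -0.011, and 0.069 with total gene reads as the scale. With no fold minimum, against the same shares of all genes, 3 were higher in animal 2 (Actc1, Vim and Flnc) and 2 lower (Ttn and Des), of which Des, the muscle intermediate filament gene, had a ratio of 0.968, and 1.02 with total gene reads as the scale. Titin, Ttn, had 1129 TPM in animal 2 and 1073 TPM in animal 1 but a ratio of scaled reads of 0.885 (0.883 to 0.888), and the Z-disc actinin gene Actn2 had 614 and 542 TPM and a ratio of 0.993. Vimentin, Vim, an intermediate filament of non-muscle cells, had a ratio of 1.09 (1.05 to 1.14).

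Of the other genes of the BAG family none of 5 passed at any fold. This is near the share of all genes with no fold minimum (6.6% higher and 4.75% lower in animal 2). Bag1 had 116 TPM in animal 2 and 97.1 TPM in animal 1, close to Bag3 in level, and Bag6 had 95.1 and 81.6 TPM. Bag2 had 13.5 and 12.3 TPM and Bag5 10.01 and 7.47 TPM. Bag5 had the largest ratio of the 5, 1.14 (1.01 to 1.28), without passing.

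Among the kinases that act on these proteins, 1 of 9 tested passed with no fold minimum, a share near that of all genes (6.6% higher and 4.75% lower in animal 2). Mapkapk3 reads numbered 1092 in animal 2 and 1174 in animal 1, a ratio of 0.882 (0.811 to 0.958). Prkaca, the catalytic subunit of protein kinase A, had 135 TPM in animal 2 and 114 TPM in animal 1, Mapkapk2 125 and 106 TPM, and Mapkapk5 35.1 and 27.0 TPM. The p38 kinase gene Mapk14 had 23.2 and 19.8 TPM.

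Several marker lists of other cell types had ratios above 1, as Hspb1 and Bag3 did. Counts of markers that passed stand against 6.6% of all genes higher and 4.75% lower in animal 2 with no fold minimum, and 0.483% higher and 0.893% lower at 2-fold. The 6 smooth muscle and pericyte genes summed to 270 TPM in animal 2 and 194 TPM in animal 1, with a ratio of summed scaled reads of 1.22, and 4 of 6 passed with no fold minimum. The ratio was 1.17 for 5 fibroblast genes (283 and 216 TPM; 4 of 5 passed), 1.17 for 5 macrophage genes (70.4 and 52.6 TPM; 2 of 5) and 1.07 for 5 endothelial genes (200.1 and 158 TPM; 4 of 5 higher and Vwf lower). The 5 adipocyte genes summed to 55.2 and 21.3 TPM with a ratio of 2.17. Of the 4 tested, 3 passed with no fold minimum and 2 at 2-fold, Cfd and Adipoq. The sum of the 7 skeletal muscle genes went the other way in scaled reads, with a ratio of 0.629. It rests on 76 reads in animal 2 and 115 in animal 1, and 2 of the 5 genes tested had a ratio above 1. Myh1 was lower in animal 2 at 2-fold, with 1 read against 22 in animal 1. Against these, the 6 cardiomyocyte genes had a ratio of 0.971 (1.03 with total gene reads as the scale). With no fold minimum 3 of them passed as lower in animal 2 and 1 as higher. The 4 Schwann cell genes had a ratio of 1.03 at 4.14 and 3.71 TPM, and 0 of the 3 tested passed. The part of these cell types in the ratios of Hspb1 and Bag3 was not tested.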

How the data were processed

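The deposited expected counts are estimated reads per gene or transcript, in the layout of RSEM (first quantification) or kallisto (second) per the file headers. The deposited TPM is the authors' own, scaled over every entry of its table with the spike-ins, per the file headers. The deposited percent column gives a transcript's share of its gene's TPM; shares printed here were recomputed from TPM. A deposited score, the posterior SD of each count, was 0.662% and 0.734% of reads for Hspb1 in animal 2 and animal 1 and 0 for the other 7 genes. The sources used here do not give aligner, versions or filters; the readme names mm10 and M21.

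Entries with no gene identifier (26249) held 2 reads in animal 2 and 4 in animal 1 (4.8e-06% and 9.5e-06% of all reads) and were left out. Expected counts were rounded, genes with at least 20 reads in total kept, and libraries scaled by TMM (edgeR 4.0.16, R 4.3.3). The two-sided exact binomial test (SciPy 1.17.1) used an adjusted p of 0.05; passing at 2-fold also needed a ratio of at least 2. Intervals and limits cover the counting error of reads only, since each animal gave 1 library. The reads carry no molecular identifiers. The script was tested on simulated data. DESeq2 1.42.0 size factors, total reads, spike-ins, no filter and edgeR's exact test were alternatives. The fits took both animals, with no covariate. Separate animals are replicates per the labels.

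The 8 genes and all lists were chosen with earlier results of these data known. Named were all 8 genes, and of each pathway list the genes passing at 2-fold, the 3 highest by TPM and the 2 with the largest ratio among those with at least 200 reads. Other list members named (Des, Flnc, Vim as members that passed, the markers Cfd, Adipoq, Myh1 and Vwf, Mapk14, Hspb9, Odf1) are given to complete a count.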

Additional observations from a re-analysis of the deposited data

How the results depend on the processing

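The summed level of the 8 genes, 2338 TPM as a mean of both animals, was 3209 TPM in the second quantification and 5596 TPM when TPM was recomputed over nuclear protein-coding genes alone. Leaving out each animal in turn gave 2114 to 2563 TPM. The number of genes passing at 2-fold, 222, was 182 to 266 with DESeq2 size factors, total reads, spike-ins, no filter or the second quantification, 139 with edgeR's exact test and 1831 with no fold minimum. Of the 8 genes, 0 passed at 2-fold in each of these settings. With no fold minimum, 3 passed with TMM and the exact binomial test (Hspb1, Bag3 and Cryab), but that number depended on the setting. Hspb6, Hspb7 and Hspb8 passed as well with total reads and Hspb8 with spike-ins, while none of the 8 genes passed with edgeR's exact test. The direction of Hspb7 was reversed with total reads, at a log2 ratio of 0.060, and by spike-ins, at 0.0066 without passing. A change of scale shifts every gene alike, and relative to the median of all genes Hspb7 was at -0.017 on all 3 scales. The log2 ratio of Hspb3 turned to -0.089 in the second quantification, where it did not pass either, and the cause was not tested. The log2 ratio of Hspb1 ran from 0.32 to 0.40 over all settings. In the second quantification the mean share of Cryab-204, the highest on average in the first, was 28.5%, beside 27.2% in animal 2 and 31.0% in animal 1 for Cryab-203, and that of Hspb6-201 was 56.0%. Depth limits Hspb3 most, with 176 reads in animal 2 and 166 in animal 1. No paired analysis was possible because the series has 1 group.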

Other observations

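Genes annotated beside the 8 genes were low. Proser3, which overlaps the start of the Hspb6 gene body by 122 bases on the opposite strand, had 66 reads in animal 2 and 53 in animal 1. Lin37, which overlaps its end by 3 bases, had 176 and 164 reads. A transcript of unknown kind inside Bag3, 2610306O10Rik, had 19 and 21 reads.

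The nuclear protein-coding genes nearest in level, by the Euclidean distance of log2 TPM over the 2 libraries, were as follows. Cryab stood next to Cox8b, a cytochrome oxidase subunit gene, at 1221 TPM in animal 2 and 1016 TPM in animal 1 (distance 0.0037), and to the lactate dehydrogenase gene Ldhb. Hspb7 stood next to Uqcrfs1 and Sdhc, of the respiratory chain, and Hspb8 next to Eci1, of fatty acid oxidation, and Vegfb. Hspb6 stood next to the autophagy gene Map1lc3a and to Itm2b, and Bag3 next to Rpl11 and Kcnk3. The nearest gene to Hspb1 was farther than that of the other 7: Sparc, a matrix protein gene, at 185 and 126 TPM (distance 0.067). Next came Myom2. The log2 ratio of scaled reads was 0.32 for Sparc and 0.11 for Myom2. Since the distance uses the level in each animal, a very near gene has a like ratio by the way it was picked. Hspb2 stood next to Mprip and Ddb1, and Hspb3 next to Tsr1 and Mfsd14a. With 2 libraries this is a likeness of level.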
